A study of Mus musculus with 4 samples.

Results

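Immediate early genes are genes whose transcription starts within minutes of a stimulus without new protein being made. The 10 described here, Egr1, Fos, Fosb, Fosl2, Jun, Junb, Npas4, Arc, Nr4a1 and Atf3, were chosen by name from the 52636 genes of the table. That rule uses no measured value, but the choice was made with earlier results of these data known. All 10 were detected in every library and all 10 passed the filter on low values, a mean normalized count of at least 10, which 16833 genes passed. They were compared between retinas of 3-week-old wild-type mice (WT) and of mice that carry Q344X, a mutation seen in autosomal dominant retinitis pigmentosa, in which photoreceptors are lost. Each genotype had 2 RNA-seq libraries of polyadenylated RNA from whole retina placed in a stabilization reagent. The labels give neither the number of mutant copies nor how the allele was made, and they leave out strain, sex, lighting and time of collection. In the Q344X retina Egr1 rose to 2.73 times its WT mean, whereas Npas4, Atf3 and Fosl2 fell, and the other 6 did not pass the test (adjusted p under 0.05). Of all genes tested, 14.6% passed, 5.46% as higher and 9.1% as lower.

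In neurons, light, synaptic input and growth factors reach these genes through calcium and MAP kinase signals, which act on CREB, SRF with Ets-family partners, and MEF2 proteins already bound to DNA. Most of the products are themselves transcription factors. FOS and JUN proteins pair through leucine zippers into the factor AP-1, ATF3 is a stress-induced member of the same zipper class, EGR1 and NR4A1 bind DNA through zinc fingers, NPAS4 is a neuronal factor that responds to calcium entry, and ARC is a synaptic protein that takes part in receptor endocytosis. In retina, Fos and Egr1 RNA is known to respond to light, and the inner retinal neurons and glia as well as photoreceptors can express such genes.

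The libraries held 18452679 to 19706573 reads in genes. Markers of rods, summed over 6 genes, were abundant in all of them, at 419609.6 and 464513 normalized counts in WT and 250652 and 274508 in Q344X. Of the 6, Gnat1 was lower past the threshold (log2 difference -2.31) and the other 5 did not pass. Gnat1 was at 179576 and 204223 in WT and 39731 and 37666 in Q344X, a large part of the change in the sum. The other log2 differences were -0.75 (Pde6b), -0.43 (Nrl), -0.04 (Sag and Cnga1) and 0.51 (Nr2e3). Both mutant libraries were above both WT libraries in Nr2e3. Cone markers were lower in 4 of 5, bipolar markers higher in 2 of 5 and ganglion cell markers higher in 1 of 5, the ganglion sum being 9819 and 11325 in WT and 16182 and 19452 in Q344X. Lens RNA was also present, and unevenly. The sum of 5 lens genes was 175367 and 210936 in WT and 167500.1 in Q344X replicate 1, but 4855 in Q344X replicate 2, so that this library stands apart. The sum of 5 blood genes was 493 and 520.4 in WT and 127 and 264 in Q344X, with 2 of the 5 lower past the threshold. The sum of 6 pigment epithelium genes was 3654 and 4029 in WT and 5033 and 6565 in Q344X. Of the 5 that passed the filter and were tested, 3 were higher. In these lists, and in those of the retinal neurons, glia and microglia, no marker was listed at 0 in any library. Results for the 10 genes are therefore also given without Q344X replicate 2 where that changes a call. The part of these other cells and tissues in the results was not tested.

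Egr1 (ENSMUSG00000038418, chromosome 18, 34859823 to 34864984, plus strand, GRCm38), a zinc-finger activator and repressor of neuronal and growth-response genes, was the only one of the 10 that rose. It was at 335 and 427 normalized counts in WT replicates 1 and 2 and at 883 and 1199.7 in Q344X replicates 1 and 2. Both mutant libraries lay above both WT libraries, and the gap between genotypes was wider than the gap within either pair. The means were 381 ± 65.2 and 1041 ± 224 (SD, n = 2 each). The difference was 1.44 ± 0.24 on the log2 scale (SE, 95% interval 0.86 to 2.03, limma adjusted p = 0.0196, Benjamini-Hochberg over 16833 genes). In bulk tissue, a change in the number of cells that hold an RNA and a change in RNA per cell cannot be told apart. Egr1 kept its call in 14 of 15 other analyses, with log2 differences of 1.22 to 1.66. The exception was the fit on every gene above 0 in a library (adjusted p = 0.0649), which ended the calls of all 4 members that passed.

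**Figure D1:**
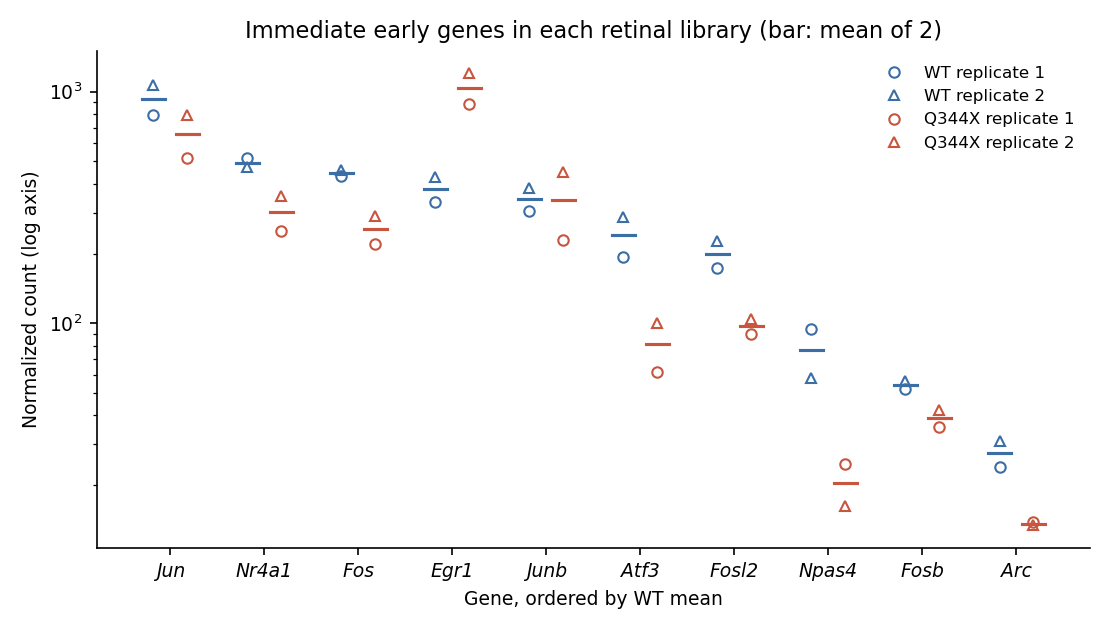
Normalized count (log axis) of each of the 10 genes in WT (blue) and Q344X (red) libraries, with replicate 1 as circles, replicate 2 as triangles and the mean of the 2 as a bar. Egr1 is the gene whose mutant libraries (883 and 1199.7) lie above both WT libraries, Junb is the one whose libraries overlap, and the other 8 lie lower in both mutant libraries.

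Npas4 (ENSMUSG00000045903, chromosome 19, 4984355 to 4990316, minus strand), which in neurons is induced by calcium entry and sets inhibitory synapse number, had the largest fall of the 10. It was at 94.6 and 58.2 normalized counts in WT and at 24.8 and 16.3 in Q344X. The WT libraries differed from each other, but both lay above both mutant libraries. The mean fell from 76.4 ± 25.8 to 20.5 ± 5.96 (SD, n = 2), a 3.72-fold lower level, with a log2 difference of -1.83 ± 0.39 (SE, 95% interval -2.79 to -0.88, limma adjusted p = 0.0343). Few reads lie behind this gene: 91 and 58 in WT and 25 and 17 in Q344X. The exact Poisson 95% intervals, which cover counting error only, were 44.2 to 75.2 normalized counts for WT replicate 2 and 16.0 to 36.5 for Q344X replicate 1, the closest pair. The call was lost without WT replicate 1, the higher of the WT libraries (-1.49, adjusted p = 0.109), and held without either mutant library.

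Atf3 (ENSMUSG00000026628, chromosome 1, 191170296 to 191218039, minus strand), a stress-induced leucine-zipper factor often used as a marker of injured neurons, also fell. Its normalized counts were 192 and 287 in WT and 61.4 and 101 in Q344X, with no overlap. The mean went from 239.6 ± 66.7 to 81.1 ± 27.9 (SD, n = 2), 2.95-fold lower, and the log2 difference was -1.57 ± 0.34 (SE, 95% interval -2.40 to -0.74, limma adjusted p = 0.0358). Without WT replicate 2 it was -1.28 and did not pass (adjusted p = 0.0813), nor did it pass under quantile normalization (0.0593) or without a mean-variance trend (0.0550).

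Fosl2 (ENSMUSG00000029135, chromosome 5, 32135801 to 32157842, plus strand), which encodes the FOS-related protein FRA2, was the third that fell. It stood at 174 and 227 normalized counts in WT and at 90.1 and 105 in Q344X. The mutant libraries were close together and both were below the WT libraries. The mean fell from 200.1 ± 37.4 to 97.4 ± 10.3 (SD, n = 2), 2.06-fold lower, with a log2 difference of -1.02 ± 0.24 (SE, 95% interval -1.62 to -0.42, limma adjusted p = 0.0453). This value lies near the threshold, and the call was lost with either WT library left out (-1.21 and -0.83, adjusted p = 0.0736 and 0.259), under quantile normalization (0.0821) and without a mean-variance trend (0.0579).

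Fos (ENSMUSG00000021250, chromosome 12, 85473890 to 85477273, plus strand), the founding AP-1 subunit and the usual marker of recent neuronal activity, did not pass. It was at 434 and 457 normalized counts in WT and 221 and 291 in Q344X, and the genotypes did not overlap. The log2 difference was -0.81 ± 0.22 (SE, 95% interval -1.34 to -0.28, limma adjusted p = 0.0585). Nr4a1, an orphan nuclear receptor (ENSMUSG00000023034, chromosome 15, 101254269 to 101274795, plus strand), was similar, at 516 and 471 in WT and 250.5 and 353 in Q344X, with a log2 difference of -0.73 ± 0.23 (95% interval -1.30 to -0.15, adjusted p = 0.0871). In both genes the WT libraries were within a narrow range and the mutant libraries lay below them. Without Q344X replicate 2, the library low in lens RNA, Fos (-1.01, adjusted p = 0.0112), Nr4a1 (-0.97, 0.0130) and Jun (-0.83, 0.0292) passed the threshold as well, and 6 of the 10 were then lower, where 11.7% of all genes were. Fos also passed under 75th percentile scaling (0.0478), with the length and GC correction (0.0196) and in DESeq2 on recovered reads (0.0435), and Nr4a1 with the length and GC correction (0.0281).

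Arc, Jun, Fosb and Junb did not pass. Arc (ENSMUSG00000022602, chromosome 15, 74669083 to 74672570, minus strand), whose product lies at active synapses, was the rarest by normalized count, at 23.9 and 31.1 in WT and 13.9 and 13.4 in Q344X. Its groups did not overlap, but each mutant value rests on 14 reads, with Poisson 95% intervals of 7.58 to 23.3 and 7.35 to 22.5 normalized counts. The log2 difference was -0.95 ± 0.37 (SE, 95% interval -1.87 to -0.03, limma adjusted p = 0.135). Jun (ENSMUSG00000052684, chromosome 4, 95049034 to 95052222, minus strand), the main partner of FOS in AP-1, was at 795 and 1071 in WT and 519.8 and 791 in Q344X, so that the groups nearly touched. Its log2 difference was -0.52 ± 0.27 (95% interval -1.20 to 0.15, adjusted p = 0.231). Fosb (ENSMUSG00000003545, chromosome 7, 19302696 to 19310051, minus strand), a FOS relative that persists after repeated stimulation, was at 52.0 and 56.1 in WT and 35.6 and 42.2 in Q344X (log2 difference -0.47 ± 0.28, 95% interval -1.17 to 0.23, adjusted p = 0.292).

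Junb (ENSMUSG00000052837, chromosome 8, 84974484 to 84978718, minus strand), an AP-1 subunit that can restrain JUN, was the one gene whose libraries overlapped. It was at 307 and 382 normalized counts in WT and at 229 and 450.1 in Q344X. The mutant libraries bracketed the WT libraries, and the log2 difference was -0.09 ± 0.35 (SE, 95% interval -0.95 to 0.77, limma adjusted p = 0.870). On the opposite strand, exons of Prdx2 share 173 bases with Junb, 7.52% of its exons, and Prdx2 was at 2852 and 3264 in WT and 4092 and 5591 in Q344X. Junos shares 232 bases with Jun, 7.28% of its exons, and was at 20.8 to 34.1 in the 4 libraries. The library kit was directional, but the sources do not say whether counting used strand or how it treated reads in shared bases. Whether such reads were added to Junb and Jun or left out of them is therefore not known.

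Across the 10, 1 was higher and 3 were lower past the threshold, and 6 did not pass. The number lower was 3 with edgeR (9.19% of all genes) and 4 with DESeq2 (11.1%), both on recovered reads, and 5 with the length and GC correction (13.5%). It was 1 under quantile normalization (7.69%), without a mean-variance trend (7.76%), without WT replicate 1 (5.4%) and without WT replicate 2 (6.1%), and 3 without Q344X replicate 1 (18.1%). With no filter, 0 were higher and 0 lower in limma (0.496% and 1.24% of all genes), with 7 of the 10 and 24.4% of all genes at an unadjusted p under 0.05. The median log2 difference of the 10 was -0.77, and that of all tested genes 0.02. In 9 of the 10 the genotypes did not overlap, 8 of them lower in Q344X, where 63.1% of all tested genes did not overlap, 31.7% with Q344X lower and 31.4% with Q344X higher. Taken singly, Q344X replicate 1 was below both WT libraries in 9 of the 10 (40.5% of all tested genes) and replicate 2 in 8 (43.0%). Replicate 2 was the higher of the mutant pair in 8 of the 10, against 50.6% of all tested genes, and the higher of the WT pair also in 8, against 52.2%. The pairs of libraries within a genotype differed by a median of 0.36 (WT) and 0.47 (Q344X) on the log2 scale over the 10, compared with 0.24 and 0.35 over all tested genes. Junb had the widest gap, 0.97 between the mutant libraries, and Arc the narrowest, 0.04 in the same pair.

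**Figure D2:**
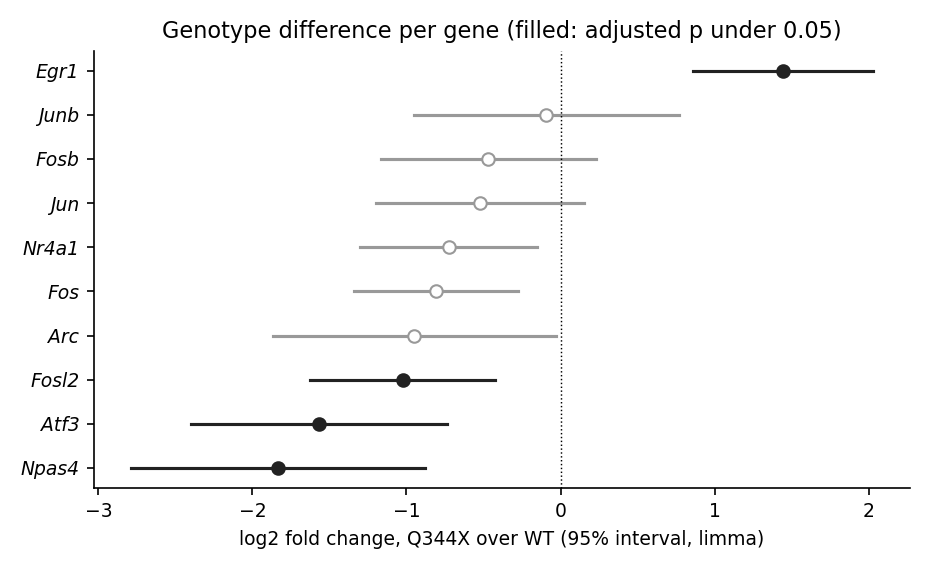
Log2 difference of each of the 10 genes, Q344X over WT, with the 95% interval of the limma fit, filled where the adjusted p was under 0.05. Egr1 (1.44) stands to the right of 0, Fosl2, Atf3 and Npas4 (-1.02, -1.57 and -1.83) are filled on the left, and the intervals of Junb, Fosb and Jun cross 0.

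The stretch before the start site is shown for the fallen genes Npas4, Atf3 and Fosl2 and for Fos, because response elements for the signals that drive these genes often lie there. The sequences are the 250 bases before the RefSeq start on GRCm38.p6, written 5′ to 3′ on the gene's own strand, and capitals mark the letters TGACG or their reverse complement, the core of a cyclic AMP response element. The windows are chr19:4989972-4990221 (minus) for Npas4, chr1:191183334-191183583 (minus) for Atf3, chr5:32136222-32136471 (plus) for Fosl2 and chr12:85473640-85473889 (plus) for Fos. The Fos window abuts the gene span given above, while those of Npas4, Atf3 and Fosl2 lie inside the spans, because GENCODE places the outermost start of these genes upstream of the RefSeq start used. Windows were used for 8 of the 10 genes. Arc and Egr1, the gene that rose, had none, so nothing below on sequence covers them.
Npas4: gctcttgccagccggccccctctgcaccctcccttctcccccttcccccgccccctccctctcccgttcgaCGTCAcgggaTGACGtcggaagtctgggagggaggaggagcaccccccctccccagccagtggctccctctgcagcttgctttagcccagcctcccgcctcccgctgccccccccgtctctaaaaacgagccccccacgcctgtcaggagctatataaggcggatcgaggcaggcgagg
Atf3: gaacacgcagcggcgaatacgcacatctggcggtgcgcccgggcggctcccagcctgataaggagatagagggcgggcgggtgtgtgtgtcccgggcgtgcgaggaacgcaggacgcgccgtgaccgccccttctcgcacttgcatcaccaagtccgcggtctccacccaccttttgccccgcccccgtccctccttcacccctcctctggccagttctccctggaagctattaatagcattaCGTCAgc
Fosl2: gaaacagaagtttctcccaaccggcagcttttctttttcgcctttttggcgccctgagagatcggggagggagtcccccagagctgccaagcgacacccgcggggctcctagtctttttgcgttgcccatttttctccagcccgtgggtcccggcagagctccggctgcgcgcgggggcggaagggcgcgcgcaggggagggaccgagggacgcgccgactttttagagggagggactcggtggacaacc
Fos: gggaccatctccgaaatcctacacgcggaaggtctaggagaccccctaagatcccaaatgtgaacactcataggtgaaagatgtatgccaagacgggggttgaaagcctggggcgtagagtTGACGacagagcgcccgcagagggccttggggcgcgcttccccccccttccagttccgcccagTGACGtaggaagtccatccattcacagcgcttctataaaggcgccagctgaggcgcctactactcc
Npas4 had 2 such matches, on opposite strands and pointing away from each other, at 179 to 175 and 169 to 165 bases before the start. Fos had 2, at 129 to 125 and 66 to 62, with a TATAAA match at 33 to 28, and Atf3 had 1, at 7 to 3. Fosl2 had none in this window.

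Of the 8 windows, 6 held TGACG on either strand, those of Jun and Fosl2 being the exceptions, and Nr4a1 had 4 matches. In 32851 RefSeq windows of the same length the share was 17.8%. Those windows were not matched for GC content, which was 58.4% to 74.4% in the 8, so the shares are not a like comparison. None of the 8 held the full palindrome TGACGTCA (1.55% of all windows), which contains TGACG on both strands, nor TGANTCA, the AP-1 element (6.75%), nor a CArG box, the letters that SRF binds (1.47%). A MEF2 box was found in Atf3, at 22 to 13 bases before the start, and in Jun, at 33 to 24 (2.92% of all windows). CCGGAA, an Ets-type element, was found in Nr4a1 (3952 of all windows), and TATAAA in Fos (12.4%). A match describes letters only, and elements outside the window were not searched. Genes that passed the test and genes that did not were found both with and without TGACG.

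Per kilobase of annotated exon, which allows levels to be compared between genes only roughly, the order of the 10 differed between genotypes. Length was counted over the merged exons of all annotated transcripts, which can be longer than the RNA present. In WT, Jun was highest at 292 normalized counts per kilobase, followed by Fos (189), Junb (149.7), Nr4a1 (141), Atf3 (111), Egr1 (85.0), Fosl2 (20.7), Npas4 (18.5), Arc (8.996) and Fosb (8.66). Neighbours whose WT libraries overlapped, and so could not be ordered, were Junb and Nr4a1, Atf3 and Egr1, Fosl2 and Npas4, and Arc and Fosb. In Q344X, Egr1 came first at 232, ahead of Jun (205), Junb (148), Fos (109), Nr4a1 (86.0), Atf3 (37.6), Fosl2 (10.1), Fosb (6.24), Npas4 (4.965) and Arc (4.46). Here each of the first 4 overlapped with the next in the order, as did Fosb with Npas4 and Npas4 with Arc, and the other neighbours lay apart. Egr1 thus stood sixth in WT and first, not separable from Jun, in Q344X.

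Summed with their relatives, the FOS, EGR and NR4A families differed between genotypes without overlap, and the JUN family did not. Lack of overlap was common, at 63.1% of all tested genes. The FOS family (Fos, Fosb, Fosl1 and Fosl2) summed to 214 and 228 normalized counts per kilobase in WT and 109 and 142 in Q344X. Fos made up 85.3% to 86.1% of that sum in WT and 85.8% to 87.3% in Q344X, so the make-up of the family was near the same in both. The NR4A family summed to 193 and 192 in WT and 111 and 141 in Q344X. Within it, the share of Nr4a3 was 6.28% and 7.07% in WT and 3.58% and 1.83% in Q344X, while the share of Nr4a2 was 17.7% and 22.9% in WT and 32.1% and 26.6% in Q344X. The EGR family summed to 79.1 and 110.0 in WT and 205 and 285 in Q344X, of which Egr1 was 86.6% to 94.4% and 94.0% to 95.9%. Egr2, Egr3 and Egr4 were rare, at no more than 26.9 normalized counts in any library, and Egr4 varied within both genotypes (1.04 and 24.1 in WT, 3.96 and 18.2 in Q344X).

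In the JUN family the sum per kilobase was 922 and 1459.9 in WT and 925 and 1869 in Q344X. Jund, the steady JUN relative that is not strongly induced, was the largest part, at 58.5% and 65.6% in WT and 71.6% and 76.3% in Q344X. The share of Jun was 27.0% and 23.0% in WT and 17.6% and 13.3% in Q344X. These shares are a description with no test.

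**Figure D3:**
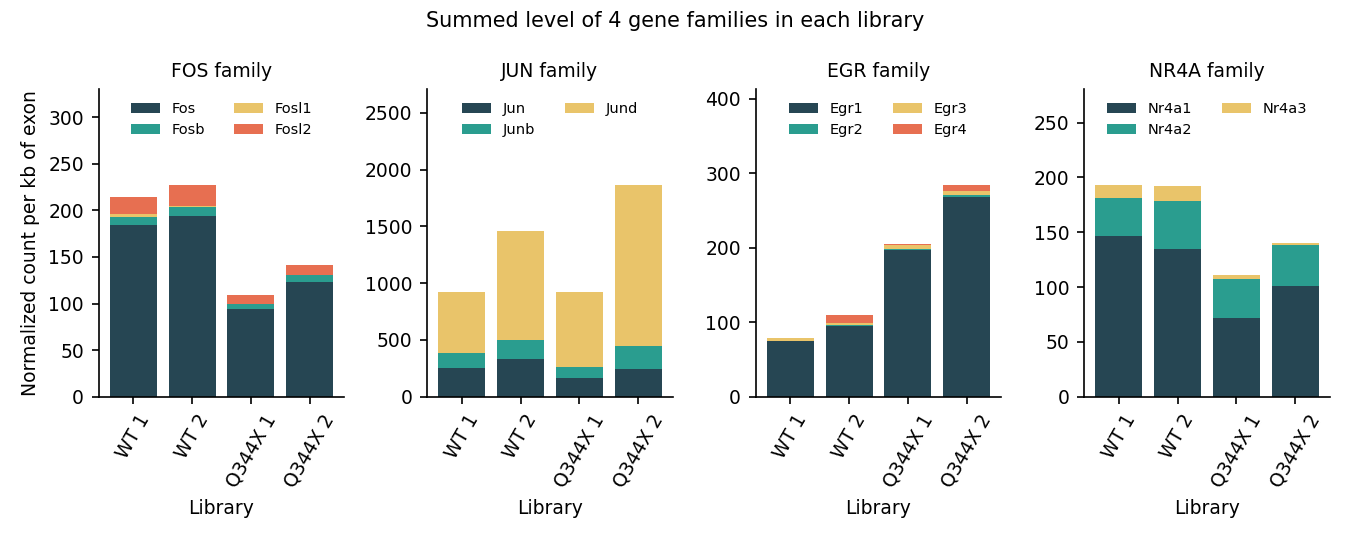
Normalized count per kilobase of exon in each library, stacked by gene, for the FOS, JUN, EGR and NR4A families, each on its own axis from 0. The FOS and NR4A bars are lower and the EGR bars higher in both mutant libraries, and the JUN bars overlap, with Jund as the largest part.

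Other immediate early genes moved in both directions. Of 36 in a list of further such genes, 34 were tested (all but Egr2 and Fosl1), of which 2 rose, 2 fell and 30 did not pass. The share called was 11.8%, below the 14.6% of all genes, and the list median was -0.09. Klf10, a zinc-finger factor induced by TGF-beta, rose from 220.5 and 199.5 normalized counts in WT to 955 and 1007 in Q344X (log2 difference 2.22 ± 0.18, SE, limma adjusted p = 0.00513). Plk2, a kinase of synaptic scaling, rose from 668 and 584 to 1411 and 1233 (1.08 ± 0.19). Sgk1, a kinase induced by serum and glucocorticoids, fell from 4971 and 4779.5 to 1197 and 1334 (-1.95 ± 0.17). Nr4a3, a nuclear receptor of the same family as Nr4a1, fell from 72.8 and 81.2 to 23.8 and 15.4 (-1.95 ± 0.34). In all 4 the genotypes lay apart. With WT replicate 2 left out, Plk2 had an adjusted p of 0.111.

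Of 29 kinases, transcription factors and their cofactors that act upstream of immediate early genes, 1 rose, 3 fell and 25 did not pass, with a median of -0.01. The share called, 13.8%, was near the 14.6% of all genes. Mef2c, a MEF2 factor of photoreceptors and neurons, was at 2117 and 2105 normalized counts in WT and 118 and 76.8 in Q344X (log2 difference -4.46 ± 0.25, SE, limma adjusted p = 0.00342). Crem, a CREB relative with repressor forms, fell by 0.88 and Map2k1, the kinase MEK1 above ERK, by 0.70. Camk4, a calcium-dependent kinase that phosphorylates CREB, rose by 0.85. Neither Crem, Camk4 nor Map2k1 passed when WT replicate 1 or WT replicate 2 was omitted (adjusted p = 0.163 to 0.338), nor without a mean-variance trend (0.0513 to 0.0846). Crem and Camk4 also missed the threshold under quantile normalization, Camk4 under 75th percentile scaling and Map2k1 with a minimum mean of 50.

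Among 13 inhibitors that MAP kinase signalling induces against itself, 1 rose, 2 fell and 10 did not pass (median -0.20). The share called was 23.1%, and that of all genes 14.6%. Spry4, a Sprouty protein, fell from 181 and 244 normalized counts to 51.5 and 88.3 (log2 difference -1.62 ± 0.33, SE, limma adjusted p = 0.0319). Dusp14, a phosphatase, fell by 0.93. Dusp2, a nuclear ERK phosphatase, rose from 3.12 and 5.01 to 15.8 and 32.6 (2.26 ± 0.56), a level near the filter. Dusp8 was the most abundant of those that did not pass, with 0.48 ± 0.28. Dusp14 did not pass when WT replicate 1 or 2 was omitted (adjusted p = 0.118 and 0.211), under quantile normalization (0.0541) or without a trend (0.0625). Spry4 did not pass without WT replicate 2 (0.0593) or under quantile normalization (0.0538). Dusp2 did not pass without WT replicate 1 (0.0662), with DESeq2 (0.0528), under 75th percentile scaling (0.0525) or with an added constant of 0.5 (0.0506), and fell below the filter without Q344X replicate 2.

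Zipper proteins that pair or compete with AP-1 gave no calls. Of 18, Batf and Batf3 were too rare to test, and 0 of the other 16 passed in limma, edgeR or DESeq2. None of the 16 had an unadjusted limma p under 0.05, where 34.7% of all genes did, and the other analyses gave 0 to 4. Without Q344X replicate 1, 3 of them passed, and 32.3% of all genes. Atf4, the most abundant, had a log2 difference of 0.04 ± 0.23 (SE), Mafg -0.15 ± 0.19, Atf2 0.08 ± 0.18 and Atf7 -0.70 ± 0.37. Of 7 other partners, 1 rose and 6 did not pass, a share called of 14.3%, near the 14.6% of all genes. The one was Arnt2, the neuronal dimerization partner of NPAS4, at 386 and 414 normalized counts in WT and 1241 and 1292 in Q344X (log2 difference 1.66 ± 0.17, limma adjusted p = 0.00748), so that Npas4 and its partner went in opposite directions. Arnt, a relative of Arnt2, had -0.50 ± 0.28, and the NR4A1 partners Rxra and Rxrb had 0.18 ± 0.32 and 0.71 ± 0.31.

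Of 13 genes that neuronal activity switches on later, 1 fell and 12 did not pass (median -0.34). The share called was 7.69%, below the 14.6% of all genes. Gpr3, a receptor that raises cyclic AMP on its own, fell from 36.4 and 43.1 normalized counts to 13.9 and 13.4 (log2 difference -1.47 ± 0.34, SE, limma adjusted p = 0.0430), and lost its call with either WT library left out (0.116 and 0.200), with DESeq2 (0.0952) and under quantile normalization (0.0642). The secretory granule gene Scg2 had -0.40 ± 0.18, Nptx1 -0.34 ± 0.30 and Rgs4, a regulator of G-protein signals, 0.63 ± 0.17, none past the threshold. Of 8 heat shock genes that stress or handling can induce, 1 fell and 7 did not pass (12.5% called, median -0.52). This was Hspa1a, at 294 and 339.9 in WT and 105 and 165 in Q344X (-1.26 ± 0.28, limma adjusted p = 0.0377), a value that is uncertain because reads may be shared with its near-identical copy Hspa1b. It did not pass without WT replicate 2 (0.0957), under quantile normalization (0.0561) or without a trend (0.0587). Hsph1, Dnajb1 and Hspa8 had -0.62, 0.37 and -0.18. Klf10, Sgk1, Mef2c and Arnt2 passed in all 15 other analyses, and were the only related genes that did so with no filter. Without Q344X replicate 1, Dusp8, Atf7, Arnt, Rxrb, Rgs4 and Hsph1 passed as well (adjusted p = 0.00134 to 0.0244), and Rgs4 and Hsph1 did with the length and GC correction.

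**Figure D4:**
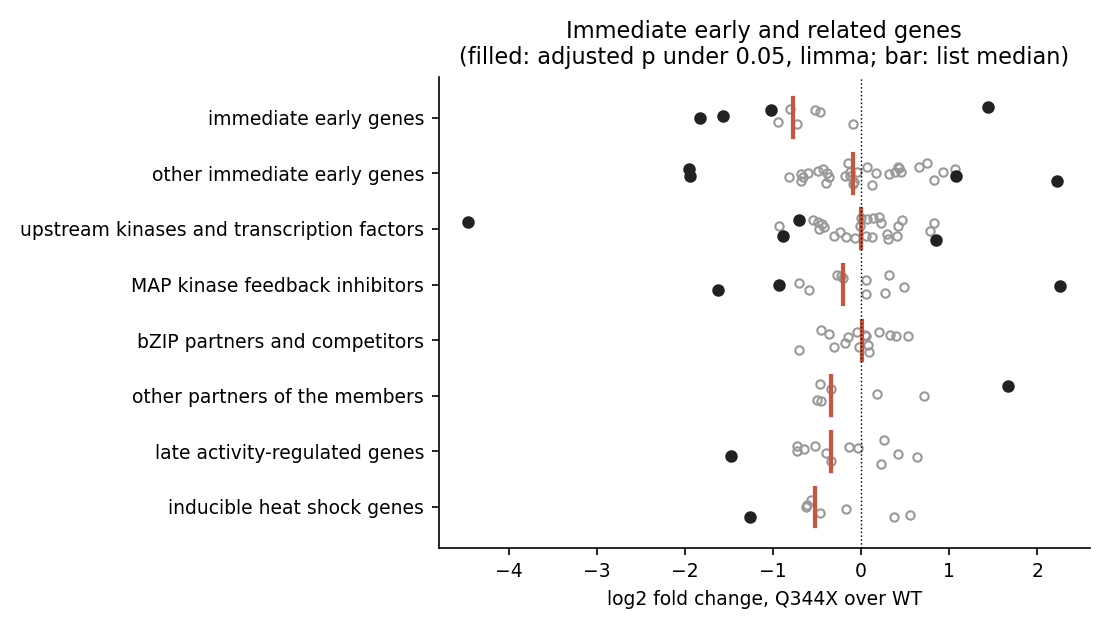
Log2 difference, Q344X over WT, of each tested gene in the set of 10 and in 7 related lists, filled where the limma adjusted p was under 0.05, with the list median as a bar. The median of the 10 (-0.77) lies to the left of those of the related lists (-0.52 to 0.01), and called genes appear on both sides of 0.

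The genes whose pattern over the 4 libraries lay closest to the mean pattern of the 10 were Mad2l1, Tpi1, Nat14, Dand5 and Zfp617. Likeness was the distance between centred log2 values among 12283 genes with a mean of at least 50, and these 5 were at 0.04 to 0.05. For comparison, Fos was at 0.175 from that mean pattern, which includes it, and Egr1 at 2.10. None of the 5 passed the test, with log2 differences of -0.61 (Zfp617) to -0.69 (Nat14).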

How the data were processed

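The table holds a signal per gene and library that the authors deposited as normalized counts, which is a gene count divided by a size factor. The submitters' processing notes name DESeq2 1.16.1, featureCounts, STAR, FastQC and Trim Galore 0.4.4, and build mm10, without their roles. The annotation and strand setting are not stated there. Values above 0 were whole multiples of the worth of 1 read (100% within 0.1), from which reads were recovered. In WT replicate 2 and Q344X replicate 1, 1 read is worth close to 1. Positions and exon lengths come from GENCODE M21 (GRCm38).

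The test was limma 3.58.1 in R 4.3.3, on log2(normalized count + 1) against genotype with a mean-variance trend, for 16833 genes with a mean of at least 10, two-sided, with Benjamini-Hochberg adjustment and a threshold of 0.05. Fold changes on this scale understate the change of rare genes. The residual degrees of freedom were 2 and the prior 3.90. An exact permutation of 2 against 2 libraries cannot go below p = 0.333, so calls rest on variance shared between genes. The design text counts 2 animals per group, kept of 3 after removal of poor RNA and outliers, and the extraction protocol 3 mutant and 2 WT mice. No label ties a library to 1 animal, so p-values may reflect technical spread only. edgeR 4.0.16 and DESeq2 1.42.0 on recovered reads were added after the data were seen. Other settings tried were 75th percentile scaling, quantile normalization, no filter or one at a mean of 50, added constants of 0.5 and 5, robust moderation, no trend, a length and GC correction, and each library left out. The test was checked on simulated counts with known changes of 2 on the log2 scale and a single assumed spread. That check does not bear on smaller changes or on the spread of these libraries.

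The 10 genes and the related lists (124 distinct genes) were chosen with earlier results of these data known. Every one of the 10 is named. In each related list up to 4 are named, called genes with the largest change first, then the most abundant. Family members beside the 10, and the copy of a named gene, appear only as such. The 5 genes with the nearest pattern are named too.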

Additional observations from a re-analysis of the deposited data

How the results depend on the processing

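Egr1 was higher and 8 of the other 9 immediate early genes (all but Junb) were lower in each of the 15 alternatives that tested them. The number of the 10 called higher stayed at 1 except where every gene above 0 was tested, which gave 0 higher and 0 lower (7 of the 10 and 24.4% of all genes had an unadjusted limma p under 0.05 there), 2 and 2 related genes, and 153 and 383 of all genes, among 30816 tested. Of the 10, 1 was lower under quantile normalization, 1 without a mean-variance trend and 5 with the length and GC correction, against 3 in the reported fit, and edgeR gave 3 and DESeq2 4. Related genes, 5 higher and 9 lower in the reported fit, came to 4 lower under quantile normalization, 5 lower without a trend, 3 higher under 75th percentile scaling, and 10 higher and 17 lower with the length and GC correction, which also gave 1781 higher genes in all, against 919. Leaving out 1 library gave 1 to 6 of the 10 lower, 3 to 16 related genes higher and 3 to 19 lower, and 555 to 2388 and 904 to 3045 of all genes. The cause of these shifts was not tested. The sign turned for 5 of the 38 genes recomputed (the 10 and those the naming rule took from the related lists), none of which passed in the reported fit. With 1 library left out, Junb ranged from -0.58 to 0.39 (0.065 without WT replicate 2), Atf4 from -0.17 to 0.26, Rxra from -0.17 to 0.53, Nptx1 from -0.70 to 0.015 and Atf2 from -0.025 to 0.19, and Atf4 was at -0.016 with 75th percentile scaling and -0.074 with the length and GC correction. With 1 library left out, the lone one is assumed to vary like the other pair. Depth limits Arc and Npas4, with 14 and 17 reads in their lowest libraries. No paired analysis was possible because the labels carry no replicate numbers. The numbers used here only name the libraries, in order of deposit within a genotype, and pair nothing.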
